A study of Mus musculus with 12 samples.

Results

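The guanylate-binding proteins (Gbp) are large GTPases that cells make in response to interferon. The 10 genes described here, Gbp2 to Gbp11, were taken by gene symbol from a table of 55471 mouse genes. The family was selected on measured values, the log2 fold changes of the comparison below in these same 12 libraries, so the values of its members are a description of that comparison and carry no test. The RNA came from primary hippocampal neurons of CD1 mice, prepared from E17 embryos of mixed-sex litters, with the genotype labelled WT. At day 7 in vitro (DIV 7) the cultures received lipid nanoparticles that carried either a gapmer against Neuid (Gm10419, a neuronal long non-coding RNA) or a control gapmer, and RNA was collected at DIV 10. A gapmer is an antisense oligonucleotide with locked nucleic acid ends that directs RNase H to a transcript. Each arm used a single gapmer sequence and had 6 libraries, called control and Neuid KD below, and every culture had received nanoparticles, so there was no untreated group. Total counts ran from 18002585 to 30914714 reads in control and from 11152556 to 30573480 reads in Neuid KD, the lowest being Neuid KD replicate 1. Nothing in the labels says whether the 6 libraries of an arm came from separate cultures. The study's caption on the knockdown in its RNA-seq samples gives an n below 6. The p-values below therefore measure only the spread between these libraries.

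Gm10419 itself followed the labels. In counts scaled to an effective library size (edgeR's TMM) of 1000000 (CPM), control had 28.4 ± 2.03 (SD, n = 6) and Neuid KD 8.05 ± 1.13, that is 28.4% of control. The lowest control library (26.0 CPM) stood well above all Neuid KD libraries, of which the highest had 9.55 CPM. The log2 fold change was -1.81 (SE 0.0845, adjusted p = 1.32e-10, edgeR's quasi-likelihood test with Benjamini-Hochberg adjustment). A two-sided exact permutation test of the CPM values gave p = 0.00216, the smallest p that 6 libraries against 6 allow. Gm10419 lies on the plus strand at chr5:108367769-108378239 (GRCm38), 3.02 Mb from the Gbp cluster on the same chromosome.

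As background, interferons signal through their receptors and JAK kinases to transcription factors that bind gamma-activated sequences (GAS) or interferon-stimulated response elements (ISRE), and IRF1 also binds the latter. Gbp proteins hydrolyse guanine nucleotides, assemble on the membranes of vacuoles that hold pathogens and on bacteria, and promote inflammasome responses. In the brain, Gbp2 is commonly used as a marker of reactive astrocytes.

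The family sits in 2 clusters. Gbp5, Gbp7, Gbp3 and Gbp2 lie on the plus strand of chromosome 3 within 144 kb (chr3:142493978-142638008, GRCm38), where Gbp2b, a further Gbp gene outside the list, also lies. Gbp8, Gbp9, Gbp4, Gbp10, Gbp6 and Gbp11 lie on the minus strand of chromosome 5 within 332 kb (chr5:105014150-105346472). Of these, 9 are annotated as protein coding, and Gbp11 as a polymorphic pseudogene. Promoter windows from RefSeq (GRCm38.p6), running from 250 bases before to 50 bases after a gene's start, covered 4 members, Gbp2, Gbp3, Gbp5 and Gbp7. The remaining 6, Gbp4, Gbp6, Gbp8, Gbp9, Gbp10 and Gbp11, had no entry.

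The windows were searched on both strands for the core of an ISRE, written as GAAA, any 2 bases and a further GAAA, and for the core of a GAS, written as TTC, any 3 bases and GAA, and no match of one overlapped a match of the other. All 4 members with a window held an ISRE match, against 3.99% of 27025 genes with a window of the same length (3.44% of 32851 windows), and Gbp5 and Gbp7 also held 2 GAS matches each, against 9.55% of genes with at least 1 match (8.30% of windows). Gbp3 had a second window that began downstream of the first and held neither. The stretches around the ISRE matches are shown because this is the element that these interferon-inducible genes had in common. They read 5′ to 3′ on the plus strand, which is the strand of the genes, with the ISRE match in capitals. In every case the match is the reverse complement of the letters given above, and in Gbp3 there are 2 overlapping matches.

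Gbp2, chr3:142620584-142620633: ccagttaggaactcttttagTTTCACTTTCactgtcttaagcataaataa
Gbp3, chr3:142559979-142560034: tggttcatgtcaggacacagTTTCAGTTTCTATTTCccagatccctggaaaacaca
Gbp5, chr3:142496749-142496798: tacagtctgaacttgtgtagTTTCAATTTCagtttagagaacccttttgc
Gbp7, chr3:142530263-142530312: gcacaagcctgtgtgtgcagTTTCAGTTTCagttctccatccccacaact
Gbp2b, chr3:142594690-142594739: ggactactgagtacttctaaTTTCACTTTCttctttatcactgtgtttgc

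The match began 59 bases before the start of Gbp2, 45 before that of Gbp3, 165 before that of Gbp5, 53 before that of Gbp7 and 137 before that of Gbp2b. These distances are from the RefSeq start on which a window is set. For Gbp2, Gbp3 and Gbp5 that start lies downstream of the start of the annotated gene given here, and the matches of Gbp2 and Gbp5 lie inside that gene. A match of letters is a description of the window and not evidence that a factor bound there. Gbp2 and Gbp2b held the same 10 letters, and so did Gbp7 and the first of the Gbp3 matches. As a yardstick, 8 of 12 other GTPase genes of the IRG, Mx and related families with a window (66.7%) held an ISRE match, as did 24 of 58 other interferon-stimulated genes (41.4%).

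Before the members' levels, a difference between libraries has to be stated. Reads on 1780 chemosensory receptor genes (olfactory, vomeronasal and taste receptors), which neurons of the hippocampus are not known for, ranged from 26.0 to 653 CPM between libraries. These reads reached at least 100 CPM in 7 libraries, control replicates 1, 2, 4 and 6 and Neuid KD replicates 1, 5 and 6, and stayed under 100 CPM in 5, control replicates 3 and 5 and Neuid KD replicates 2, 3 and 4. The means were 313 and 227 CPM in the control and Neuid KD arms, and where such reads come from was not tested. The 2 classes are called high-background and low-background below.

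Gbp2 (ENSMUSG00000028270, chr3:142620602-142638008), which acts against intracellular pathogens, showed the largest relative difference of the 10. In control its lowest, median and highest levels were 3.46, 3.91 and 4.75 CPM, and in Neuid KD they were 0.168, 0.340 and 0.738 CPM. The groups did not overlap, and no Neuid KD library came near the lowest control. The mean went from 3.98 ± 0.537 to 0.383 ± 0.229 CPM (SD, n = 6 each), which left 9.62% of control, a 10.4-fold lower level. The fitted log2 fold change was -3.34 (SE 0.320). In the low-background libraries alone the means were 3.55 and 0.306 CPM, and in the high-background libraries 4.19 and 0.459 CPM, so the gap had a similar size in both.

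Gbp3 (ENSMUSG00000028268, chr3:142560026-142573209) was one of the most abundant members. Its lowest, median and highest levels were 6.15, 7.81 and 11.3 CPM in control against 2.15, 2.46 and 3.20 CPM in Neuid KD. Here too the groups stood apart. The means were 8.28 ± 1.81 and 2.57 ± 0.438 CPM, leaving 31.04% of control, with a log2 fold change of -1.70 (SE 0.154).

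Gbp7 (ENSMUSG00000040253, chr3:142530342-142550149), which takes part in defence against intracellular bacteria, had control levels of 6.54, 8.68 and 10.5 CPM (lowest, median and highest) and Neuid KD levels of 2.87, 3.85 and 4.88 CPM. The groups were separate, and the gap between them was narrower in proportion than for Gbp2 or Gbp3. The means were 8.63 ± 1.29 and 3.79 ± 0.721 CPM, leaving 43.9%, with a log2 fold change of -1.20 (SE 0.135).

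Gbp5 (ENSMUSG00000105504, chr3:142493978-142522344), known as a promoter of NLRP3 inflammasome assembly, was much less abundant and its groups overlapped. Its control levels were 0.633, 1.58 and 2.74 CPM (lowest, median and highest), and its Neuid KD levels were 0.0468, 0.515 and 2.02 CPM. The value of 2.02 CPM belonged to Neuid KD replicate 1, the shallowest library and a high-background one, and the other Neuid KD libraries were at most 0.861 CPM. The log2 fold change was -1.18 with an SE of 0.599, and Gbp5 did not pass the thresholds used here. Without Neuid KD replicate 1 the log2 fold change of Gbp5 was -1.86 and it passed them. The low-background means were 1.22 CPM in control against 0.245 CPM in Neuid KD, while the high-background means were 1.70 and 1.15 CPM. Gbp2b, with means of 1.03 ± 0.723 and 0.595 ± 0.518 CPM and a log2 fold change of -0.83 (SE 0.701), overlapped between groups and did not pass either. With 1 library left out the value of Gbp2b ran from -1.27 to -0.46, and it was -0.45 in the high-background libraries.

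On chromosome 5, Gbp9 (ENSMUSG00000029298, chr5:105077630-105139539) was the member with the clearest separation. Its lowest, median and highest levels were 1.54, 1.78 and 2.70 CPM in control against 0.175, 0.309 and 0.451 CPM in Neuid KD. The groups did not overlap. The means of 1.92 ± 0.421 and 0.318 ± 0.113 CPM left 16.5% of control, a 6.06-fold lower level, with a log2 fold change of -2.57 (SE 0.348). The direction and the separation were the same in the low-background libraries, with means of 2.25 and 0.279 CPM, and in the high-background ones, with means of 1.76 and 0.357 CPM.

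Gbp4 levels were 0.434, 1.38 and 2.13 CPM in control against 0, 0.448 and 1.68 CPM in Neuid KD (lowest, median and highest). The groups overlapped through Neuid KD replicates 1, 5 and 6, the high-background libraries of that arm. Neuid KD replicate 3 had no Gbp4 read, and at its depth 3 reads would be 0.140 CPM. The low-background means were 0.610 CPM in control against 0.0621 CPM in Neuid KD, and the high-background means were 1.61 and 1.08 CPM. The log2 fold change was -1.21 with an SE of 0.765, and the gene did not pass. With 1 library left out the value ran from -1.92, without Neuid KD replicate 1, to -0.94. Gbp8 levels were 0.362, 0.702 and 1.55 CPM in control against 0.116, 0.527 and 1.52 CPM in Neuid KD. They overlapped over most of their range, and Gbp8 had the smallest fold change of the tested members, -0.49 (SE 0.590). That value ran from -1.01 without Neuid KD replicate 1 to -0.24 without control replicate 1, and was -0.05 in the high-background libraries. Its means were 0.585 against 0.268 CPM in the low-background libraries and 0.981 against 0.964 CPM in the high-background ones.

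The remaining members, Gbp6, Gbp10 and Gbp11, had too few reads to be tested. Over 6 libraries per arm, Gbp6 had 25 reads in control and 9 in Neuid KD, Gbp10 had 39 and 22, and Gbp11 had 42 and 9. Their highest level in any library was 0.510 CPM, for Gbp10 in control replicate 4. All 3 overlapped between groups. Gbp11 had no read in control replicate 5 or in Neuid KD replicates 2, 3 and 6.

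**Figure D1:**
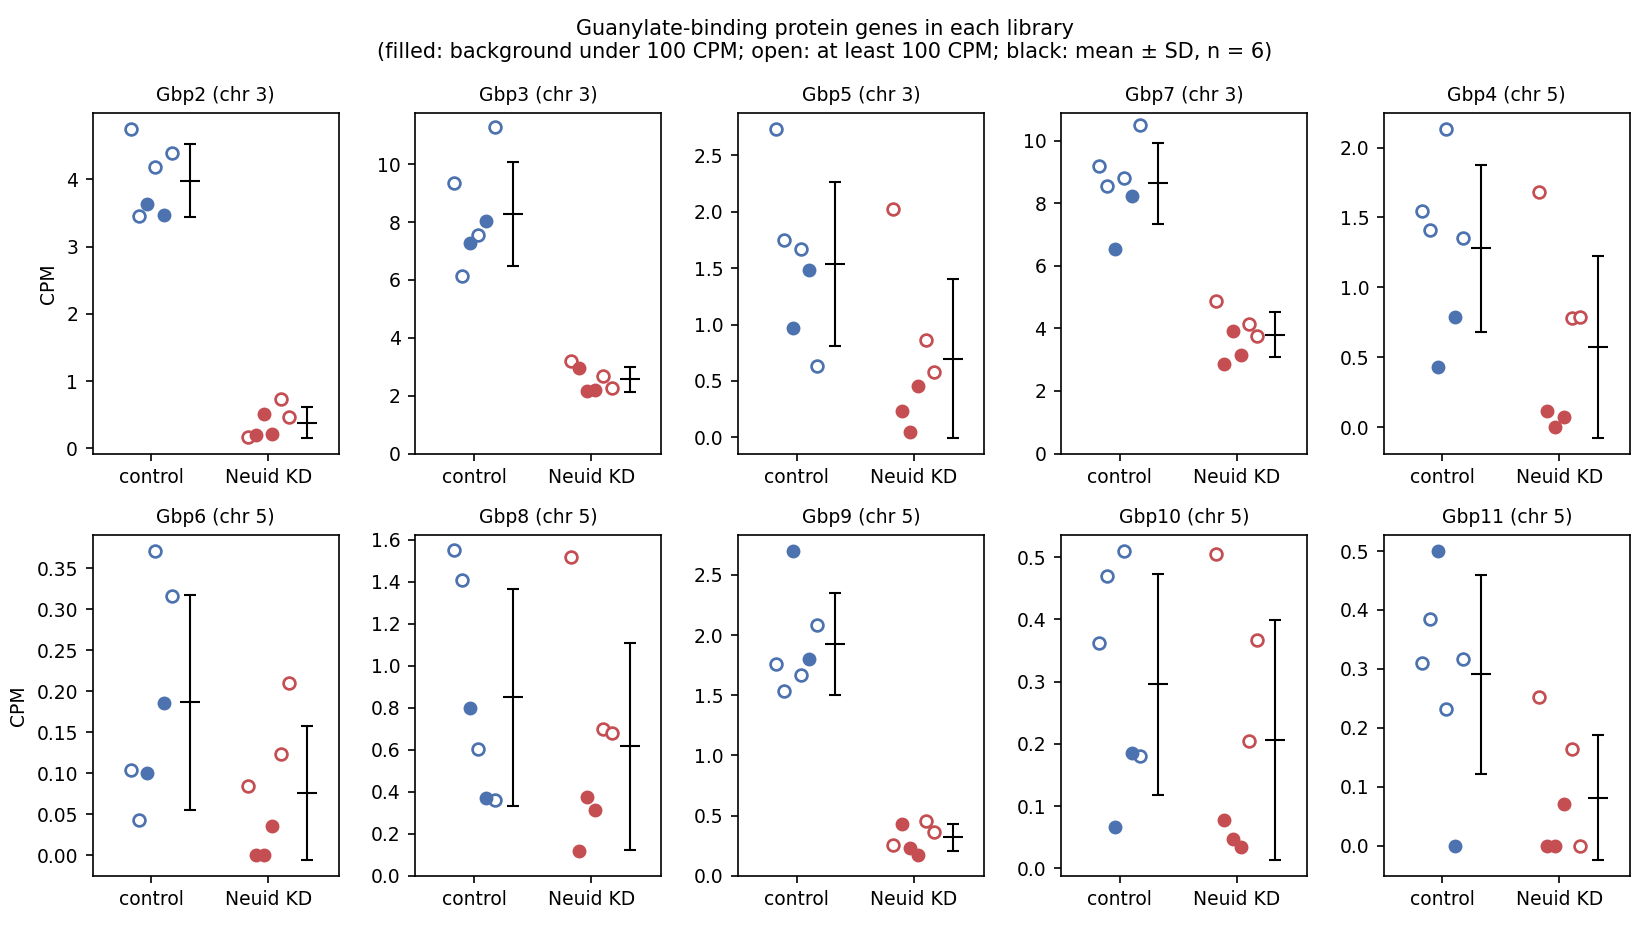
Level of each Gbp gene in CPM (vertical axis, its own scale in each panel) in the 6 control and 6 Neuid KD libraries. Each point is 1 library, filled where chemosensory receptor genes took under 100 CPM and open where they took at least 100 CPM, and the black bars are the mean ± SD. The groups are apart for Gbp2, Gbp3, Gbp7 and Gbp9 and overlap for the other 6 genes, where the open points of Neuid KD mostly lie above its filled ones.

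Altogether 7 of the 10 members passed the filter on low counts, and 4 of these 7 (Gbp2, Gbp3, Gbp7 and Gbp9) were called lower, at an adjusted p under 0.05 and a log2 fold change beyond 0.5 in size. None was called higher. Among all 19578 tested genes 0.792% were called lower by the same rule, and 2.44% higher. The same 4 genes were those whose every Neuid KD library lay below every control library, which held for 1.57% of tested genes, while the opposite, every Neuid KD library above every control library, held for 4.13%. Since the members were picked knowing this contrast, these counts are given as a record only. The calls of all tested genes were 477 higher and 155 lower, a split that moved with the scaling to 389 higher and 218 lower under upper-quartile scaling. Without Neuid KD replicate 1, 269 genes were called lower. The median log2 fold change of all tested genes was -0.03. In bulk samples such as these, fewer cells of a type and less RNA per cell cannot be told apart.

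Summed over the 10 members, the family took 27.3 ± 3.65 CPM in control (23.02 to 31.6) and 9.31 ± 3.04 CPM in Neuid KD (6.71 to 14.6), which was 34.2% of control. The highest Neuid KD sum was that of replicate 1. The 4 genes on chromosome 3 went from 22.4 to 7.44 CPM (33.2% left) and the 6 on chromosome 5 from 4.82 to 1.87 CPM (38.7% left). In the low-background libraries the chromosome 5 sum went from 3.97 to 0.697 CPM (17.6% left) and in the high-background ones from 5.25 to 3.04 CPM (57.9% left). For the chromosome 3 sum 31.8% and 36.1% were left. Within Neuid KD the chromosome 5 sum was 2.41 to 4.29 CPM in the high-background libraries and 0.655 to 0.737 CPM in the low-background ones. Within the sum the makeup differed between arms. Gbp2 made up 14.6% of the control sum and 4.11% of the Neuid KD sum, while Gbp7 went from 31.7% to 40.7% and Gbp3 from 30.4% to 27.6%.

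Levels of different genes can be compared only per length. Per kilobase of annotated exon, Gbp3 was highest in control, at 2.54 ± 0.554 CPM per kb. Gbp2 and Gbp7 followed at 1.58 ± 0.214 and 1.54 ± 0.230 CPM per kb and did not differ beyond their spread. Gbp9 came next at 0.372 ± 0.0814 CPM per kb. Gbp8, Gbp5 and Gbp4 formed a run of 0.247 ± 0.150, 0.232 ± 0.110 and 0.171 ± 0.0797 CPM per kb within each other's spread. Gbp11, Gbp10 and Gbp6 were lowest, at 0.108, 0.0763 and 0.0313 CPM per kb. In Neuid KD, Gbp3 (0.787 ± 0.134 CPM per kb) and Gbp7 (0.675 ± 0.128) led and lay within each other's spread, and Gbp2 was at 0.152 ± 0.0912 CPM per kb, next to Gbp8 at 0.179 ± 0.143. Gbp9 was at 0.0614 ± 0.0218 CPM per kb, within the spread of Gbp5 (0.105 ± 0.106) and Gbp4 (0.0764 ± 0.0867). In the low-background Neuid KD libraries Gbp9 was at 0.0538 ± 0.0255 CPM per kb, and Gbp5 and Gbp4 were at 0.0369 ± 0.0308 and 0.00829 ± 0.00782.

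How far each member stood above reads that fall on genes without known expression here was gauged with the chemosensory receptor genes. Their reads per kilobase of exon in each library gave the number of reads that a Gbp gene of a given length would collect at the same rate. In control, Gbp3 had 1130 reads, 49.6 times that number, Gbp2 had 544 reads (31.01 times) and Gbp7 had 1174 reads (30.0 times). Gbp9 stood at 7.54 times, Gbp8 at 4.83, Gbp5 at 4.43 and Gbp4 at 3.23 times. Gbp11 at 2.24 times, Gbp10 at 1.44 and Gbp6 at 0.602 were nearest to the rate. In Neuid KD, Gbp3 (331 reads, 24.2 times) and Gbp7 (479 reads, 20.3 times) remained far above the rate. Gbp2 was at 4.83 times with 51 reads and Gbp9 at 1.94 times with 42 reads. The expected numbers in these sums come mostly from the high-background libraries. In the low-background control libraries alone, Gbp11 had 15 reads (22.9 times the rate), Gbp10 had 6 (6.37 times) and Gbp6 had 7 (4.83 times). All 15 Gbp11 reads were in control replicate 3 and none in control replicate 5, so that ratio rests on 1 library. In the low-background Neuid KD libraries Gbp9 had 21 reads (6.13 times) and Gbp2 had 22 (13.2 times), while Gbp4 with 5 reads (1.01 times), Gbp11 with 2 (1.12 times) and Gbp6 with 1 (0.254 times) were near or under the rate.

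**Figure D2:**
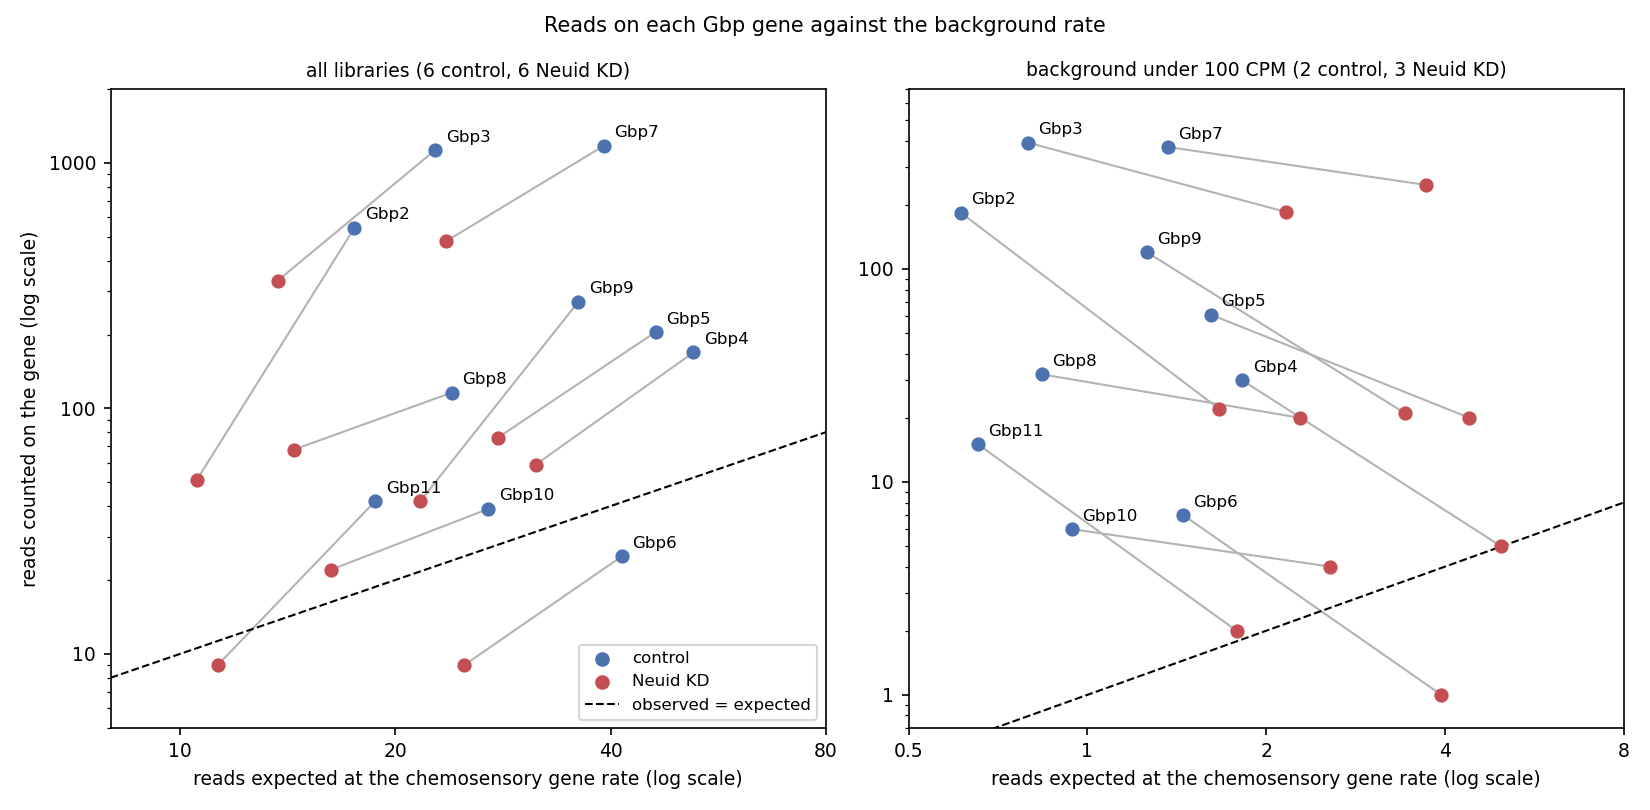
Reads counted on each Gbp gene (vertical, log scale) against the reads expected from its exon length at the rate of chemosensory receptor genes (horizontal, log scale), summed over all 6 libraries of an arm on the left and over the low-background libraries (2 control and 3 Neuid KD) on the right, with a grey line joining control (blue) and Neuid KD (red). Gbp3 and Gbp7 lie far above the dashed line of equality in both panels, and Gbp6 lies below it in both arms over all libraries but above it in control in the low-background ones.

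The members resemble each other, and reads were 50 bases long, so some reads cannot be placed on 1 gene. Of the 50-base windows along the annotated transcripts, 2.03% of those of Gbp2 also occurred exactly in another gene, which was Gbp2b. The share was 3.75% for Gbp3, 1.44% for Gbp5 and 12.7% for Gbp7. On chromosome 5 it was 8.05% for Gbp9, 7.78% for Gbp4, 18.1% for Gbp8, 19.2% for Gbp11, 70.7% for Gbp6 and 84.1% for Gbp10. With 1 mismatch allowed, the share rose to 17.6% for Gbp9, 14.7% for Gbp4, 34.7% for Gbp8 and 41.5% for Gbp11. It was then 75.8% for Gbp6 and 92.1% for Gbp10. For Gbp2, Gbp3, Gbp5 and Gbp7 it was 3.62%, 6.50%, 3.62% and 14.6%. Exons also overlap: Gbp4, Gbp8 and Gbp9 share exon sequence on the same strand, Gbp6 and Gbp10 overlap Gm43302, and Gbp7 overlaps Gm43802. On the opposite strand Mir6381 overlaps an exon of Gbp2, and whether counting used the strand is not given in the sources used here. The part of the exon length that belongs to 1 gene alone was 98.8% for Gbp9, 88.7% for Gbp7, 71.0% for Gbp6 and 53.7% for Gbp10. How reads that match several genes were counted is not given in the sources used here, so the values of Gbp6 and Gbp10 cannot be assigned to either gene, and those of Gbp8 and Gbp11 are uncertain.

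**Figure D3:**
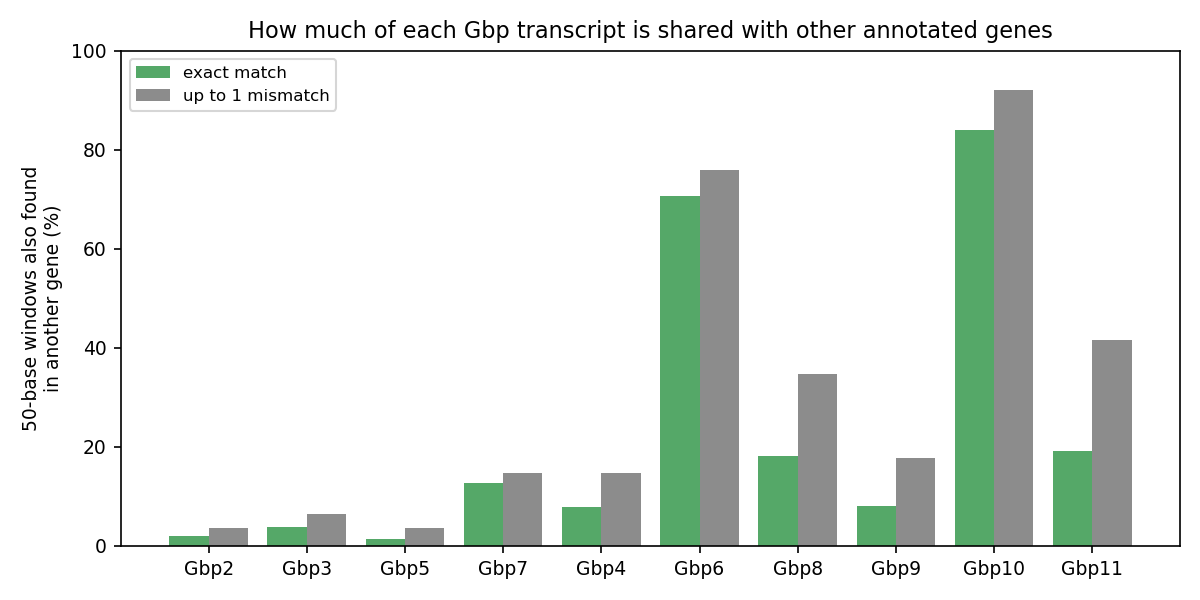
Percent of the 50-base windows of each Gbp gene's annotated transcripts (vertical) that also occur in another annotated gene, exactly (green) or with up to 1 mismatch (grey). The bars reach 70.7% and 84.1% for Gbp6 and Gbp10 and stay below 4% for the exact matches of Gbp2, Gbp3 and Gbp5.

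The other genes of the interferon pathway were examined in lists ordered by role. Ligands were nearly absent. Of 10 ligand genes 1, Il18 (a cytokine that induces interferon-gamma, named here after its value was seen), was tested and was higher, going from 4.35 ± 0.671 to 7.47 ± 0.727 CPM (log2 fold change 0.77, SE 0.113, adjusted p = 0.000145, edgeR). Of the remaining 9, 5 had no read in any low-background library, Ifng (interferon-gamma) among them, and Ifnb1 (interferon-beta) had 1. All 6 receptor genes were tested and none was called. The interferon-gamma receptor subunits Ifngr1 and Ifngr2 had log2 fold changes of 0.32 (adjusted p = 0.0558) and -0.02 (adjusted p = 0.886), and the type I receptor subunits Ifnar1 and Ifnar2 had 0.10 and 0.01 (adjusted p = 0.407 and 0.986, edgeR). The sign of Ifnar2 turned under other scalings, and that of Ifngr2 when control replicate 3 was left out.

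Of 17 tested genes of kinases, STATs, IRFs and coactivators none was called in either direction, with a median log2 fold change of -0.37 against -0.03 for all tested genes. At an unadjusted p under 0.05, 4 of them were lower and 1 was higher, and DESeq2 called none. Irf1, a direct activator of Gbp genes, had a log2 fold change of -0.46 (SE 0.164, adjusted p = 0.110, edgeR). The adjusted p for the log2 fold change of Irf1 was 0.0254 with DESeq2, 0.0488 with 1 RUVs factor (a fitted term for unwanted variation) and 0.0457 with the background as a covariate, each at a size under 0.5, and Irf1 passed both thresholds without control replicate 5 (-0.54, adjusted p = 0.0474, edgeR) or Neuid KD replicate 1 (-0.55, adjusted p = 0.0497, edgeR). Irf9, a DNA-binding factor of the type I interferon response, had -0.25 (SE 0.111, adjusted p = 0.240, edgeR). Stat2 had an adjusted p of 0.00196 but a log2 fold change of -0.37, below the size required, and is mentioned after its value was seen. Of 10 brakes on the pathway none was called, with a median of -0.09, 2 at an unadjusted p under 0.05 in each direction, and none by DESeq2.

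Among nucleic acid sensors, 1 of 13 tested was lower and 1 was higher. Ddx58, which encodes the RNA sensor RIG-I, went from 4.65 ± 1.06 to 2.06 ± 0.228 CPM (log2 fold change -1.17, SE 0.169, adjusted p = 0.000124, edgeR), without overlap. Eif2ak2, the kinase PKR that responds to double-stranded RNA, went from 6.33 ± 0.950 to 9.50 ± 0.681 CPM (log2 fold change 0.59, SE 0.0965, adjusted p = 0.000495, edgeR), also without overlap. The 2 sensors thus moved in opposite directions.

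Of 20 other GTPase genes of the IRG, Mx and related families 9 were tested and none was called, with a median log2 fold change of -0.64, 2 at an unadjusted p under 0.05 (both lower) and none by DESeq2. The 2 with the most reads, Irgq (102.9 CPM in control) and Irgm1 (4.33 CPM), had log2 fold changes of -0.03 and 0.03. Igtp had -1.49 with an SE of 0.678, and Iigp1 had -0.64 with an SE of 0.396. All 4 were singled out after their values were seen.

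Of 47 tested other interferon-stimulated genes, 8 were lower and none was higher, with a median log2 fold change of -0.61 and 44 values below 0. Among all 19578 tested genes 0.792% were called lower, and 10880 had a value below 0. The median of the list was -0.42 in the low-background libraries and -0.45 with the background as a covariate, and it ran from -0.89 to -0.41 with 1 library left out. The list was written with earlier results of these data known. Over the interferon, inflammasome and A1 astrocyte lists 10 genes were lower, against 17 without Neuid KD replicate 1, 16 in the low-background libraries alone and 7 in the high-background ones. The 5 with the largest changes were Ifit1, Psmb8, Parp9, Ifitm3 and Lgals3bp. Ifit1, which binds viral RNA, went from 0.899 ± 0.194 to 0.118 ± 0.199 CPM (log2 fold change -3.14, SE 0.892, adjusted p = 0.0351, edgeR), a call that was lost in 11 of 12 fits with 1 library left out, without the filter on low counts and in the high-background libraries. Psmb8, an immunoproteasome subunit, had -1.60 (SE 0.376, adjusted p = 0.0106, and a call lost in the high-background libraries alone) and Parp9, which acts with Dtx3l in ADP-ribosylation, had -1.36 (SE 0.296, adjusted p = 0.00606). Ifitm3, which blocks virus entry, had -1.23 (adjusted p = 0.0317) and lost its call in 8 of the 12 such fits, without the filter on low counts, with the replicate block and in either background class alone. Lgals3bp, a secreted galectin-3 ligand, had -1.21 (adjusted p = 0.000707).

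**Figure D4:**
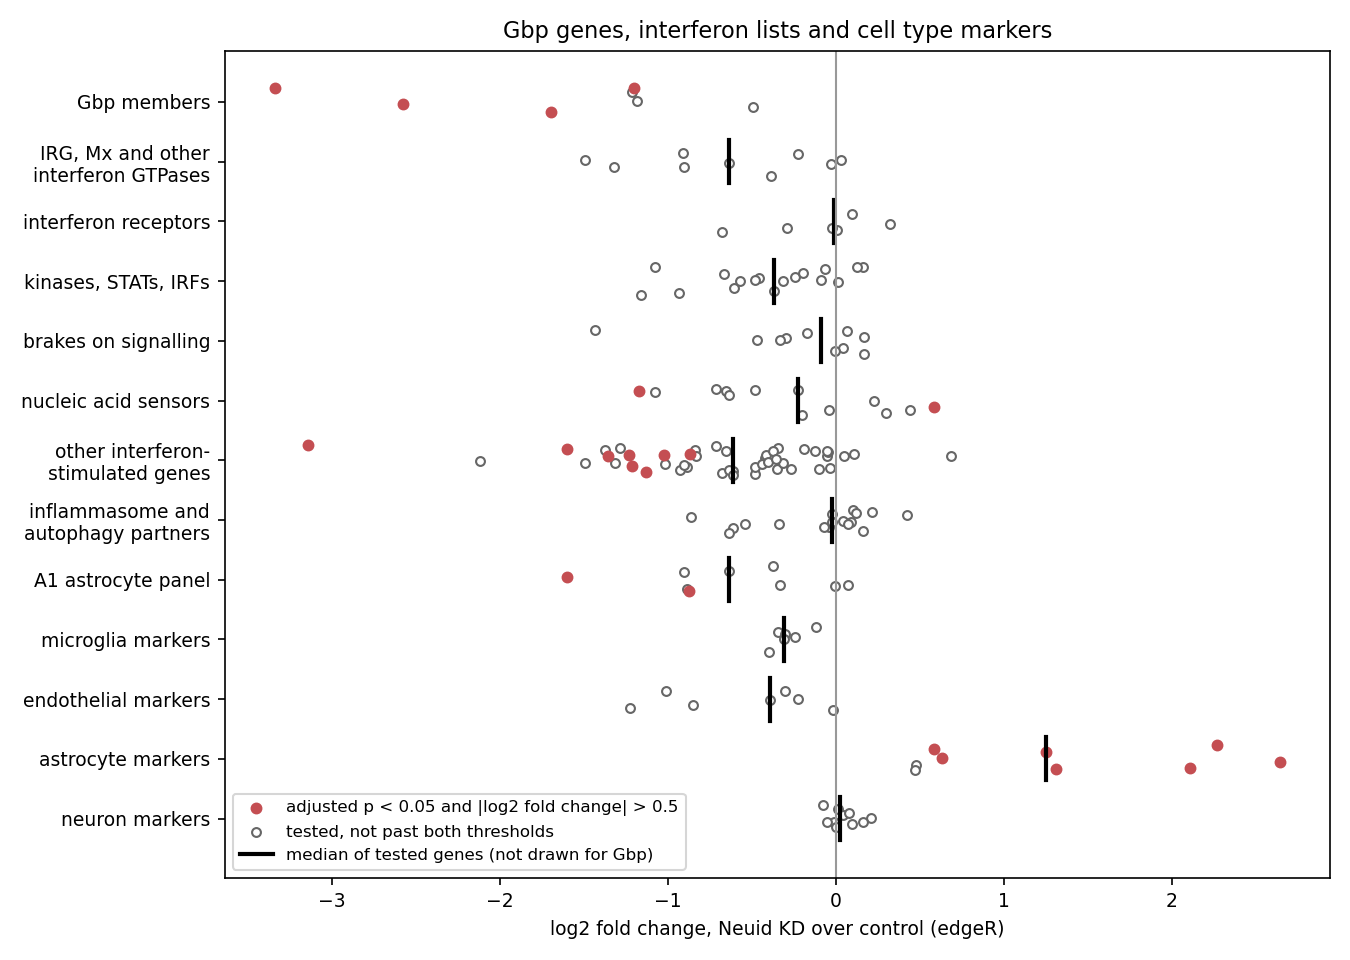
Log2 fold change, Neuid KD over control (horizontal), of each tested gene of the Gbp list and of the lists named on the vertical axis. The ligand, oligodendrocyte precursor, fibroblast and mural, and lymphoid lists are not drawn. Filled points passed an adjusted p of 0.05 and a log2 fold change of 0.5 in size, and black bars are list medians (not drawn for the Gbp list). Gbp2 lies farthest left at -3.34, next to Ifit1 at -3.14, while 7 of 9 astrocyte markers lie to the right among the filled points.

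Gbp proteins act with inflammasomes and with autophagy factors. Of 17 tested genes of that list none was called, with a median log2 fold change of -0.02. At an unadjusted p under 0.05, 3 were higher and 1 was lower, and DESeq2 called none. Gbp2 is itself counted among the genes of a neurotoxic (A1) astrocyte panel. Of 9 tested panel genes other than Gbp2, 2 were lower and none was higher. They were Psmb8, given above, and Ggta1, a galactosyltransferase (3.11 ± 0.846 and 1.71 ± 0.472 CPM, log2 fold change -0.87, SE 0.236, adjusted p = 0.0268, edgeR), whose call was lost in 4 of 12 fits with 1 library left out. For the log2 fold change of Ggta1 the adjusted p was also 0.114 without the filter on low counts, 0.235 in the high-background libraries and 0.0856 in the low-background ones (edgeR).

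Markers of cell types moved with the comparison too. Of 9 tested astrocyte markers 7 were higher and none was lower, and their sum over the list went from 1932 ± 154 to 3455 ± 239 CPM, from 1674 to 2110 CPM in control libraries and from 3034 to 3692 CPM in Neuid KD libraries. Slc1a2, a glutamate transporter and the most abundant of them, went from 1185 ± 100 to 1834 ± 212 CPM (log2 fold change 0.63, adjusted p = 1.84e-05, edgeR). Of 6 tested oligodendrocyte precursor markers 2 were higher, Olig1 (log2 fold change 1.47, adjusted p = 1.29e-10, edgeR) and Olig2 (named after its value was seen), and the sum of the list went from 105.5 ± 7.42 to 269.9 ± 17.3 CPM. Olig1 and Olig2 carried that sum, and the other 4 markers together had 16.9 ± 2.71 CPM in the control arm and 20.04 ± 6.30 CPM after knockdown. Gbp levels thus went down in libraries in which astrocyte markers went up. The part of these cell types in the Gbp levels was not tested.

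The cultures were labelled as hippocampal neurons. Neuron markers summed to 7367 ± 459 CPM and 7443 ± 485 CPM in the control and Neuid KD arms, beside 1932 and 3455 CPM for the astrocyte markers. None of the 10 neuron markers was called, and Map2 was the most abundant of them at 2625 and 2607 CPM. Microglia can express Gbp genes, and of 16 of their markers 6 were tested and none was called. Their sum was 20.1 ± 4.56 CPM in control (14.9 to 26.2) and 17.2 ± 4.46 CPM after knockdown (13.3 to 25.8). The defining genes P2ry12 and Tmem119 did not pass the filter, and Gpr34 had no read in the low-background libraries. The endothelial sum was 21.5 ± 9.36 and 16.9 ± 6.92 CPM, or 11.7 and 11.5 CPM in the low-background libraries, with none of 7 markers called and Kdr the most abundant. The fibroblast and mural sum was 114.5 ± 13.6 and 89.5 ± 6.74 CPM, with none of 10 called and Fn1 the most abundant at 60.8 and 43.8 CPM. Every Neuid KD library was below every control library in that sum (81.2 to 97.1 against 101.9 to 135.7 CPM), of which Fn1 was the largest part. No single marker of the list separated the arms in this way, which 1.57% of all tested genes did. Of the 10 log2 fold changes 8 were below 0, while Pdgfrb (0.37) and Acta2 (0.10) were above 0. The log2 fold change of Fn1 was -0.46 with an adjusted p of 0.00522 (edgeR), short of the size threshold. Fn1 passed both thresholds under upper-quartile scaling (-0.52) and in the high-background libraries (-0.52, adjusted p = 0.00287, edgeR). With 1 library left out its log2 fold change ran from -0.57 to -0.43, and the highest adjusted p was 0.0153 (edgeR). The part of these cells in the Gbp levels was not tested. Lymphoid markers summed to 5.07 ± 4.197 and 3.31 ± 3.27 CPM, or 0.523 and 0.890 CPM in the low-background libraries, with none of 3 tested called.

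None of the tested neighbours of the clusters was called lower. Within 500 kb of the chromosome 3 cluster 18 other genes were annotated, 6 were tested, and 2 were higher and none was lower. They were Bmpr1b, a BMP receptor (10.3 ± 1.83 and 17.3 ± 2.24 CPM, log2 fold change 0.75, adjusted p = 0.000131, edgeR), and Pdlim5, a cytoskeletal adaptor (25.8 ± 2.67 and 41.7 ± 2.23 CPM, log2 fold change 0.70, adjusted p = 9.55e-07, edgeR). Around the chromosome 5 cluster 7 of 19 genes were tested and none was called by edgeR or DESeq2, nor did any have an unadjusted p under 0.05. Their log2 fold changes ran from -0.88 to -0.02.

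Across the 12 libraries, the genes whose log2 CPM was most like that of the summed Gbp level were Ahnak (Pearson r = 0.982), Csrp1 (0.966), Gpd1 (0.964), Abca8a (0.960) and Trf (0.955), where genes averaging under 1 CPM were left out. The libraries form the 2 arms, so such an r mainly reflects the gap between them, and it is given without a p. Ahnak, a giant scaffold protein, had 19.0 and 5.86 CPM (log2 fold change -1.73). Gpd1, the glycerol-3-phosphate dehydrogenase of the cytosol, had 62.1 and 22.3 CPM (-1.49). Abca8a, a lipid transporter, had 15.6 and 7.53 CPM (-1.05), Trf, the iron carrier transferrin, had 2.40 and 0.795 CPM (-1.62), and Csrp1, a LIM-domain protein, had 14.3 and 10.6 CPM (-0.44).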

How the data were processed

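Total RNA of 12 samples was sequenced from SMARTer Stranded Total RNA Pico libraries as 50-base single reads. The authors used bcl2fastq, STAR and featureCounts on mm10 and deposited raw counts per gene. The annotation release, strand setting and treatment of reads that match several genes are not given in the sources used here. Gene names (GENCODE on GRCm38) matched 55230 of 55471 identifiers. CPM are counts scaled to an effective (TMM) library size of 1000000. The counts were fitted with edgeR 4.0.16 (R 4.3.3; TMM, filterByExpr, quasi-likelihood test, group only, Benjamini-Hochberg over 19578 genes) and called at an adjusted p under 0.05 and a log2 fold change beyond 0.5 in size. DESeq2 1.42.0, other scalings and filters, 1 RUVs factor, a background covariate, background classes, a replicate block and leaving out each library were alternatives. The study used DESeq2 with RUVSeq, while edgeR was the main fit here and DESeq2 an alternative, both on the raw counts. The members and gene lists were chosen with earlier results of these data known. Named were the 10 members and Gbp2b, set receptors and factors, called genes of the lists (at most 4 or 5 each), called neighbours, the most abundant marker of each cell type and the 5 genes most like the Gbp sum. Some genes that this rule names are not reported here. Among 30 pairs of libraries within an arm the lowest chi-square per degree of freedom was 3.37, so no library was counted as a duplicate. In simulated counts for this comparison over 18217 genes, 42.6%, 68.6% and 81.7% of genes changed by 0.5, 1 and 2 on the log2 scale were recovered. Recovery here meant an adjusted p under 0.05 with the right sign, without the size threshold of the calls. Only genes averaging at least 0.5 CPM were changed, so these shares do not give the recovery under the full calling rule. A count of 0 allows up to 3 reads, and such limits cover counting error only.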

Additional observations from a re-analysis of the deposited data

Results flagged for a closer look

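Among 84 sets of 6 libraries (a named gene in 1 arm), 6 had a single library whose gap to the nearest of the others, divided by the whole range, exceeded Dixon's critical value for 6 values, where chance gives about 5% of sets. None was a Gbp member. Irf9 was low in Neuid KD replicate 6, at 5.23 CPM against 6.82 to 7.46 CPM in the others. Ifit1 was high in Neuid KD replicate 1, at 0.505 CPM against 0 to 0.157 CPM. Slc1a2 was low in the same library, at 1425 CPM against 1825 to 2004 CPM, and so was Map2, at 2106 CPM against 2594 to 2790 CPM. Bmpr1b was high in control replicate 2, at 13.8 CPM against 9.00 to 10.2 CPM. Trf was high in control replicate 1, at 3.87 CPM against 1.76 to 2.46 CPM.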

How the results depend on the processing

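Gbp2, Gbp3 and Gbp7 were called lower under every alternative run, and so was Gbp9 wherever an adjusted p was given. DESeq2 gave none for 7 of the named genes (Gbp4, Gbp5, Gbp8, Gbp9, Gbp2b, Ifit1 and Ms4a1), so it called 3 members. Over all alternatives the log2 fold change ran from -3.68 to -3.04 for Gbp2, -1.79 to -1.60 for Gbp3, -1.31 to -1.12 for Gbp7 and -3.04 to -2.23 for Gbp9. Gbp4 and Gbp5 also passed with 1 RUVs factor, with the background covariate and in the low-background libraries (-3.14 and -2.25 there), which made 6 members, and Gbp5 passed without Neuid KD replicate 1. The causes of these changes were not tested. The summed Gbp level had a log2 ratio between -1.78 and -1.52 with 1 library left out.

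The count of genes called lower, 155, became 254 with DESeq2, 283 with 1 RUVs factor, 300 with the background covariate and 269 without Neuid KD replicate 1 (123 to 269 over single left-out libraries), and 38.7% of calls were then lower in place of 24.5%. Without a fold threshold 1235 genes were higher and 473 lower, and with a threshold of 1 there were 167 and 48. In the interferon, inflammasome and A1 astrocyte lists 10 genes were lower, and 22, 23 and 16 with the RUVs factor, the covariate and the low-background libraries, 17 without Neuid KD replicate 1 (7 to 17 over single left-out libraries) and 16 without a fold threshold. With a threshold of 1 none of the genes of these lists (0, against 2) and none of the neighbours (0, against 2) was higher.

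Some values changed sign, that of Ms4a1 from -0.44 and the others from near 0. The log2 fold change of Ifnar2 was -0.0117 with DESeq2 size factors, -0.0529 with upper-quartile scaling, -0.0123 with DESeq2, -0.00817 with the strict filter, -0.00916 with the RUVs factor, -0.00698 with the covariate and -0.0901 in the low-background libraries. The log2 fold change of Kdr was 0.0332, 0.0230, 0.0628 and 0.0133 with the RUVs factor, the covariate, and the high- and low-background libraries, and the log2 fold change of Ms4a1 was 0.256 and 0.137 with the RUVs factor and the covariate. With 1 library left out, ranges that crossed 0 were -0.0593 to 0.0535 (Ifnar2), -0.132 to 0.0936 (Kdr), -0.0485 to 0.00932 (Map2), -0.0551 to 0.00591 (Ifngr2) and -1.24 to 0.00626 (Ms4a1).

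The labels number the replicates of both arms 1 to 6. Same-numbered libraries had correlations of their deviations from -0.616 to 0.729, 2 of 6 were over 0.1 and 2 of 6 correlated best with their own number, so the numbers were not taken as pairs. Those over 0.1 were replicates 1 and 3, whose libraries shared a background class. Replicates 2, 4 and 5, of different classes, were below 0, and replicate 6, of a shared class, had -0.145. Since the correlations varied with the background class, they cannot show whether the numbers are pairs. With the replicate block 474 genes were higher and 167 lower, 4 Gbp members remained called, the same lists had 2 higher and 11 lower, the log2 fold change of Gm10419 was -1.82, and Ifitm3 was the only named gene to lose its call. Depth limits Gbp6, Gbp10 and Gbp11, with 34, 61 and 51 reads in all.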
